A study of Mus musculus with 10 samples.

Results

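Imprinted genes are expressed from a single parental copy, and 42 of them were followed here through the H3K4me3 ChIP-seq and ATAC-seq peaks of F123 mouse embryonic stem cells (mESCs). The members were a given list of names found in the GENCODE M21 annotation of mm10, and they are 42 of the 51229 genes that it places on chromosomes 1 to 19. Of these, 34 are protein-coding and 8 are long noncoding. By textbook assignment 16 are expressed from the maternal copy and 25 from the paternal copy, and Gnas gives transcripts of both kinds. A peak belonged to a gene when it shared at least 1 bp with the 2 kb on either side of any annotated transcript start of that gene.

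F123 is an F1 hybrid line, derived from a cross of Mus musculus castaneus and S129/SvJae mice. The cells were grown with LIF and knockout serum replacement on irradiated CF1 mouse embryonic fibroblasts and passaged once without feeders before harvest, with no treatment and no second condition. The H3K4me3 list (33487 peaks) and the ATAC-seq list (179109 peaks) each stand for 2 replicates, so no value below has a spread between replicates, and neither list gives a read count from which depth could be known. The lists carry no allele information, although the line is a hybrid, and every statement on a maternal or paternal gene therefore rests on the class of the gene and not on a measured allele. All 7 embryonic stem cell markers examined had an H3K4me3 peak near a start, with fold enrichments of 13.1 to 42.9. Of 6 fibroblast markers 5 had one, among them Twist1 at 28.2 and Dcn at 3.39, and Postn had no peak in either list. The part of feeder chromatin in the peaks below was not tested.

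Imprinting is set in the germ line, where a control region of each cluster is methylated in either the egg or the sperm, and the mark is kept on that copy in the body cells of the offspring. The methylated copy is bound by the zinc finger protein ZFP57, which recognises the methylated hexamer TGCCGC and, with its partner TRIM28, keeps the methylation through early development. The unmethylated copy of a control region that lies at a promoter is open and carries H3K4me3, the histone mark of active or poised starts. Most such regions are methylated in the egg and drive a paternally expressed gene, while those of the H19 and Meg3 clusters lie between genes and are methylated in the sperm. In the lists below, 20 members were classed as having a control region at a start that is methylated in the egg, again from textbook knowledge.

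Stretches rich in ZFP57 hexamers from H3K4me3 peaks at 7 control region starts are shown first, because this sequence was more frequent there than at other marked starts. Each is 100 bases from the plus strand of mm10, read from the reference genome, with TGCCGC and its reverse complement GCGGCA in capitals. Stretches that overlap an annotated untranslated region were left out of the search. Also left out was every peak near a start of a member with no match in the RefSeq promoter table, named below. Among these were the peaks of Peg13 and Kcnk9, with 6 hexamers each, and the widest peak of Gnas and Nespas, with 14. The stretches given are therefore not all that the members' peaks hold. Those of Kcnq1ot1 and Nnat overlap annotated exons.
Inpp5f, chr7:128687938-128688037: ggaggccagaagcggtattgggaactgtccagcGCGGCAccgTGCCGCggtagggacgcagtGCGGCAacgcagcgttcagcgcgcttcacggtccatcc
Kcnq1ot1, chr7:143295658-143295757: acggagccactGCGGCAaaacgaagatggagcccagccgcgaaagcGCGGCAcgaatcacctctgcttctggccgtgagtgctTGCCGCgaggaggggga
Nnat, chr2:157560318-157560417: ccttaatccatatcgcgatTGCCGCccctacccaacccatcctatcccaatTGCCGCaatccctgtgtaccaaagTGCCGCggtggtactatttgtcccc
Mest, chr6:30737601-30737700: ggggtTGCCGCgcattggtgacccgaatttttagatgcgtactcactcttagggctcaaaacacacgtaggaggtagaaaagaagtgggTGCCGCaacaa
Snrpn, chr7:60004342-60004441: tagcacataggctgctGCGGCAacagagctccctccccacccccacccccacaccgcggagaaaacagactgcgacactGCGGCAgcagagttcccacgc
Plagl1, chr10:13091026-13091125: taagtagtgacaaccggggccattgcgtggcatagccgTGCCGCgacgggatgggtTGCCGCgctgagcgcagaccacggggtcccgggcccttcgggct
Airn, chr17:12741729-12741828: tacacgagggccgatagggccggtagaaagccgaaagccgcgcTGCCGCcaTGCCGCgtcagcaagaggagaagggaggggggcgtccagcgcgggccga
The first 3 stretches hold 3 matches each and the other 4 hold 2. Mkrn3, with no control region classed at its start, also had a stretch with 3, and Ascl2, likewise without one, had a stretch with 2. Nap1l5 and the shared peak of Peg3 and Usp29, with a control region at a start, had a stretch with 2 each, not shown.

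The peak shared by Peg3 and Usp29 stood apart by a different motif, the core GCCATNTT of the YY1 binding site, where N is any base. The 250 bases of that peak with most matches outside annotated untranslated regions (chr7:6727783-6728032, plus strand, no annotated exon) hold 3, with the core or its reverse complement in capitals.
Peg3 and Usp29: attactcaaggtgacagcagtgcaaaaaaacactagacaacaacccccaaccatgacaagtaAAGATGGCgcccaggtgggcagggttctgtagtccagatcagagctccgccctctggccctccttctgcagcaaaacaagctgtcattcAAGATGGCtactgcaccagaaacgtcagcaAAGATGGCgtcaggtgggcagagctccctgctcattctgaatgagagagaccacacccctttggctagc

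Promoters at RefSeq starts of Ube3a, H13 and Inpp5f, the members with the highest folds, and of Slc22a18 and Mirg, with the lowest, and of Rian, with no peak, are shown for their CpG content, with CG in capitals. Each is the 150 bases directly before a RefSeq start (GRCm38.p6, the assembly that mm10 names), 5′ to 3′ along the gene.
Ube3a, chr7:59228600-59228749, plus strand: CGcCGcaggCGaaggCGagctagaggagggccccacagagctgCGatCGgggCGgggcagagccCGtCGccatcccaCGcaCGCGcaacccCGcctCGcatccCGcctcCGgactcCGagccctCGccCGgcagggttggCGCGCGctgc
H13, chr2:152669311-152669460, plus strand: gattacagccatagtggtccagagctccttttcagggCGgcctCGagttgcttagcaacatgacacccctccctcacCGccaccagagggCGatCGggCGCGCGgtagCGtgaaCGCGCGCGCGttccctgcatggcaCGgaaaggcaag
Inpp5f, chr7:128611215-128611364, plus strand: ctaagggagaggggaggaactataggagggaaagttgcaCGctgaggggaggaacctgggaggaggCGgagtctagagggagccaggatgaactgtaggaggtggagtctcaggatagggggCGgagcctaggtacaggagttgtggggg
Slc22a18, chr7:143473639-143473788, plus strand: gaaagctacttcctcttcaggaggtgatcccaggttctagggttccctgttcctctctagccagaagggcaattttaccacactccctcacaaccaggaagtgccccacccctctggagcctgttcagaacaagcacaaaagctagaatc
Mirg, chr12:109734831-109734980, plus strand: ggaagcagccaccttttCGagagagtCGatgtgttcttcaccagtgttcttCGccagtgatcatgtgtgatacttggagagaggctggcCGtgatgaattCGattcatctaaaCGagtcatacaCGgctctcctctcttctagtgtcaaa
Rian, chr12:109603795-109603944, plus strand: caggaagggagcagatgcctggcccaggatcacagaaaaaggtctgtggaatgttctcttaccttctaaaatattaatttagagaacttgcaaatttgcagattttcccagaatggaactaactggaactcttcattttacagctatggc
They hold 22, 15, 3, 0, 7 and 0 CpGs in this order. The stretch of Mirg touched no H3K4me3 peak, and that of Slc22a18 lay at its weaker peak of 2.89. Their counts therefore cannot be set against their folds, which were measured elsewhere. In the 1 kb around the summit of the strongest peak, Ube3a, H13 and Inpp5f had 101, 75 and 74 CpGs. Slc22a18 and Mirg had 19 and 16 there. Other members did not follow this order, as Ascl2 had 91 at a fold of 10.3 and Slc38a4 37 at 36.4. A relation of CpG content to fold over all members was not tested. Of the 42 members, 32 matched the RefSeq promoter table. Peg13, Impact, Cdkn1c, Kcnk9, Nespas, Peg10, Sgce, H19, Rtl1 and Trappc9 did not.

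Nearly all imprinted genes were marked. An H3K4me3 peak lay near a start of 40 of the 42 members (95.2%, 95% Wilson interval 84.2% to 98.7%), where 39.5% of all genes had one. Among protein-coding members it was 33 of 34 against 70.8% of all protein-coding genes, and among long noncoding members 7 of 8 against 33.3% of all long noncoding genes. An ATAC-seq peak lay near a start of 41 of the 42 (97.6%), against 55.3% of all genes. For protein-coding members this was 33 of 34 against 79.2%, and for long noncoding members 8 of 8 against 55.3%. Both kinds of peak were found for 40 of the 42 (95.2%), against 38.8% of all genes. Of the 20252 genes with an H3K4me3 peak 98% also had an ATAC-seq peak, so that all 40 marked members had one is close to the background. The intervals cover counting error only, and the members are not independent, since they share clusters and in part promoters.

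The count of members depends on how many starts a gene has, because each start adds another window. Members had a median of 5 distinct starts, and all protein-coding genes a median of 3. Counted by starts, 162 of the members' 250 starts lay inside an H3K4me3 peak (64.8%), against 53.9% of all protein-coding starts. An H3K4me3 peak covered at least 1 start of 37 of the 42 members (88.1%), against 68% of protein-coding genes, and an ATAC-seq peak covered a start of 37 (88.1%), against 71.1%. The members drew on 61 different H3K4me3 peaks, of which 58 (95.1%) touched an ATAC-seq peak, close to the 93.9% of the 17737 H3K4me3 peaks near protein-coding starts. Of the 113 different ATAC-seq peaks near their starts, 90 touched an H3K4me3 peak (79.6%), against 64.3% of the 33861 ATAC-seq peaks near protein-coding starts. Pairs of members shared 5 of the H3K4me3 peaks, at the divergent promoters of Peg3 and Usp29 and of Peg10 and Sgce, at Gnas and its antisense Nespas (2 peaks), and where Zrsr1 lies inside Commd1.

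Their peaks had a larger median width than those of protein-coding genes and a lower median fold. For the strongest peak of each member, by the authors' fold enrichment, the median width was 3052 bp (quartiles 1919 to 4087 bp, 40 members), against 2162 bp (1587 to 2869 bp) for 14740 protein-coding genes. Of the 40, 28 were wider than that protein-coding median, and 12 exceeded the 90th percentile of 3774 bp. The median fold enrichment was 26.7 (quartiles 17.0 to 35.3), against 31.1 (20.7 to 40.6) for protein-coding genes, and 14 of 40 exceeded the protein-coding median. Only Ube3a and H13 lay above the 90th percentile of 48.9, and Slc22a18, Mirg, H19 and Ascl2 lay below the 10th, 10.9. The 33 protein-coding members alone had medians of 27.3 and 3083 bp. The 7 long noncoding members had a median fold of 23.1, close to the 22.7 of 3140 long noncoding genes. Their median width was 2954 bp, against 1972 bp in those genes.

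**Figure D1:**
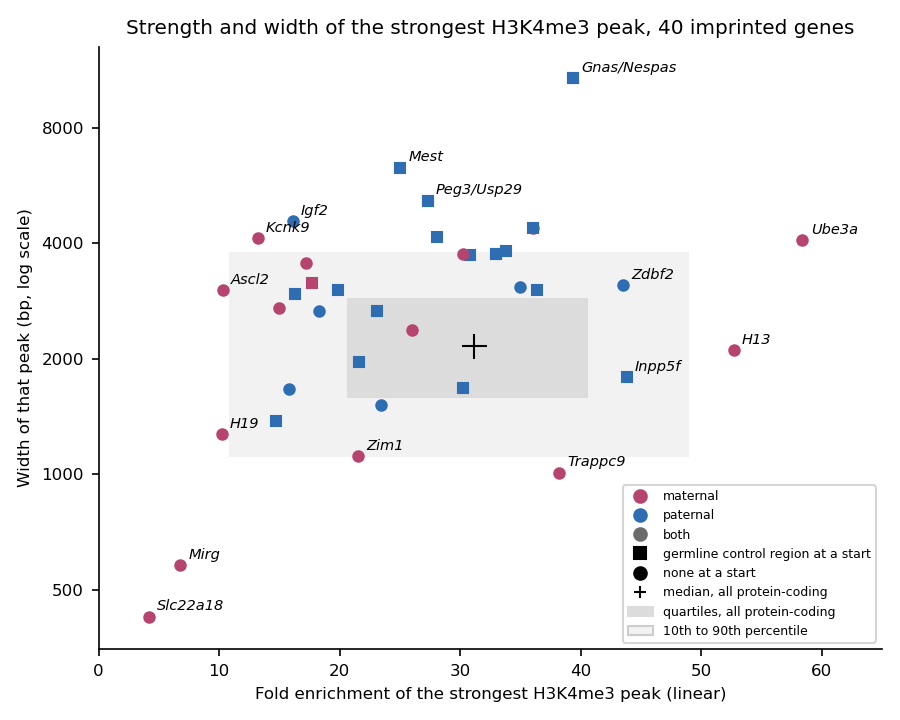
Fold enrichment (x axis, linear) against width in bp (y axis, log scale) of the strongest H3K4me3 peak of the 40 imprinted genes with a peak, coloured by the expressed parental copy and shaped by whether a germline control region lies at a start. The dark and light boxes hold the middle range (quartiles, and 10th to 90th percentile) of all protein-coding genes, the cross is their median, and pairs that share a peak lie on each other. Most members lie above the cross in width (28 of 40) and to its left in fold (26 of 40).

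Maternally and paternally expressed genes were marked about as often. A peak was found near a start of 15 of 16 maternally expressed members (93.8%, 71.7% to 98.9%) and of 24 of 25 paternally expressed members (96%, 80.5% to 99.3%), with 1 member lacking a peak in each class. The share was 70.8% among all protein-coding genes and 33.3% among all long noncoding genes. The strongest peak had a median fold of 17.7 in the maternal class (4.15 to 58.4, 15 genes) and of 27.7 in the paternal class (14.7 to 43.8, 24 genes), and the paternal range lay within the maternal range. Median widths were 2715 bp and 3100 bp. The maternal class held 5 genes whose parental expression is limited to some tissues or transcripts (Ube3a, H13, Trappc9, Commd1 and Grb10), with a median fold of 38.2, and the other 10 had a median of 14.1 (4.15 to 30.2). Parental class and control region could not be told apart in these genes, since 18 of the 25 paternal members but 1 of the 16 maternal members have a control region at a start. Among genes without one, the medians were 19.4 in 14 maternal and 20.8 in 6 paternal members.

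All 20 members with a control region at a start were marked, as were 20 of the 22 others (90.9%), where 70.8% of all protein-coding genes were. The 20 had a median fold of 29.2 (14.7 to 43.8) and a median width of 3735 bp, and the others 19.9 (4.15 to 58.4) and 2693 bp. An ATAC-seq peak covered a start of 20 of 20 and of 17 of 22. The second share (77.3%) is close to the 71.1% of all protein-coding genes. The values are those of the strongest peak of each gene, which is not always the peak at the control region. The 43.8 is that of the first start of Inpp5f, whose inner start had 20.1. Commd1, among the others, counts with the peak of 36.0 that it shares with Zrsr1. These are descriptions over genes of few clusters, with no test of the difference.

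**Figure D2:**
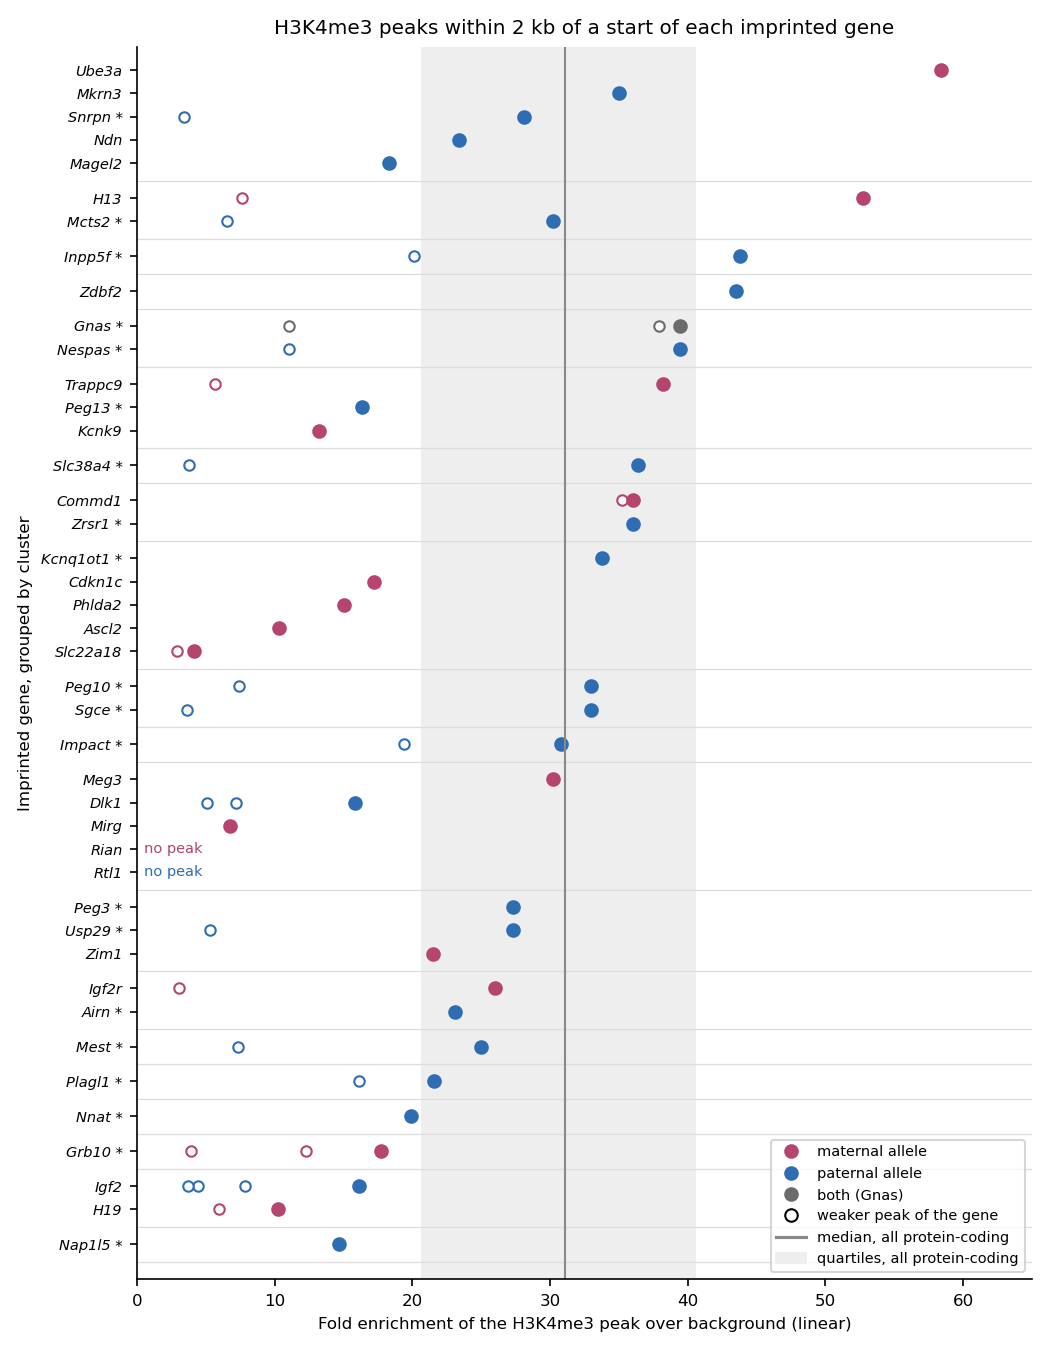
Fold enrichment (x axis, linear) of every H3K4me3 peak within 2 kb of a start of each of the 42 imprinted genes (rows, grouped by cluster, clusters ordered by their strongest peak). Filled points are the strongest peak of the gene and open points its weaker peaks, colours give the expressed parental copy, an asterisk marks a control region at a start, and the grey band and line are the quartiles and median of all protein-coding genes. Rian and Rtl1 have no peak, and the folds run from 4.15 in Slc22a18 to 58.4 in Ube3a.

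In the Snrpn cluster, the region of the Prader-Willi and Angelman syndromes, all 5 members were marked. Ube3a, a ubiquitin ligase whose paternal copy is silent in neurons only, had the highest fold of all members at 58.4, higher than in 97.6% of protein-coding genes, in a peak of 4076 bp (chr7:59227300-59231375, −log10 q 825, summit 484 bp downstream of the first start). Mkrn3, a ring finger gene without introns, reached 35.0. Snrpn, which encodes a splicing factor, was marked at its inner start only (28.1, chr7:60001734-60005889), and its outermost annotated start had no peak within 2 kb. For Ndn, a MAGE family growth regulator, the peak (23.4) began 1537 bp downstream of the only GENCODE start and covered the RefSeq start at chr7:62348277, and for Magel2, its neighbour of the same family, the fold was 18.3.

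In the Kcnq1 cluster the noncoding RNA was the most strongly marked of the 5 members. Kcnq1ot1, the paternal antisense RNA that silences the neighbouring genes on that copy, had the strongest peak (33.8, chr7:143292821-143296651, 3831 bp, −log10 q 447, summit 780 bp into the transcript). Cdkn1c, a cyclin-dependent kinase inhibitor, followed at 17.2 and Phlda2, a regulator of placental growth, at 15.0. Ascl2, a transcription factor of the trophoblast, had a wide but weak peak (10.3, 3017 bp, chr7:142966841-142969857, −log10 q 91.5). Slc22a18, a transporter gene, was the weakest member, with peaks of 425 bp at 4.15 (chr7:143475038-143475462, −log10 q 10.1) and of 444 bp at 2.89, each over annotated starts and each touching an ATAC-seq peak. All 4 maternal genes of the cluster thus lay below the protein-coding median of 31.1.

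At Igf2 and H19 the growth factor gene carried the stronger mark. Igf2, which encodes the insulin-like growth factor of the fetus, had 4 peaks near its 9 starts, the strongest at 16.1 (chr7:142657151-142661721, 4571 bp, −log10 q 147) and the others at 3.69, 4.45 and 7.86. The start of H19, a noncoding RNA, lay in a peak of only 5.93. Its strongest peak was upstream, at 10.2 (chr7:142579910-142581181, −log10 q 93.2, beginning 1767 bp before the start), and a further peak of 7.47 lay at chr7:142581501-142582118. The 5 kb upstream of H19, where the control region bound by the insulator protein CTCF lies, also held 4 ATAC-seq peaks. The upstream peak at 10.2 held 2 matches to the CTCF core CCGCNNGGNGGCAG, a number that 1 of the 17737 H3K4me3 peaks near protein-coding starts reached (0.00564%). That rarity depends on the choice of pattern. Even a single match was found in the 1 kb around the summit of only 0.496% of peaks near protein-coding starts, and other CTCF patterns were not tested.

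The Dlk1-Meg3 cluster was the only 1 of the 20 clusters with unmarked members, with 3 of 5 marked, although the Igf2-H19 cluster had a lower highest fold (16.1 against 30.2). Meg3, its maternal noncoding RNA, had a peak of 30.2 at its first start (chr12:109539279-109543038, 3760 bp, −log10 q 256). Dlk1, which encodes a membrane protein of the Notch ligand kind, had peaks of 15.8 at its main starts, 5.11 at an inner start and 7.18 upstream. Rian, a host of small nucleolar RNAs, had no H3K4me3 peak near any of its 19 annotated starts, and the nearest lay 7232 bp from any of them (3.84, chr12:109612691-109613095), although an ATAC-seq peak lay 407 bp from a start. Rtl1, a placental gene derived from a retrotransposon, had neither kind of peak, the nearest H3K4me3 peak being 12361 bp away and the nearest ATAC-seq peak 5030 bp away. The only peak of Mirg, a microRNA host, lay past the end of the gene, 1704 bp from its last start (6.78, chr12:109749668-109750246, 579 bp, −log10 q 25.8), so none of its 11 starts was covered. Rian, Mirg and Meg3 are transcribed in the same direction. Between Dlk1 and Meg3, 9695 to 15481 bp before the Meg3 start and thus in the stretch known to hold the germline control region, lay 3 H3K4me3 peaks of 4.69 to 8.56 that covered 5682 bp together and were assigned to no member.

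**Figure D3:**
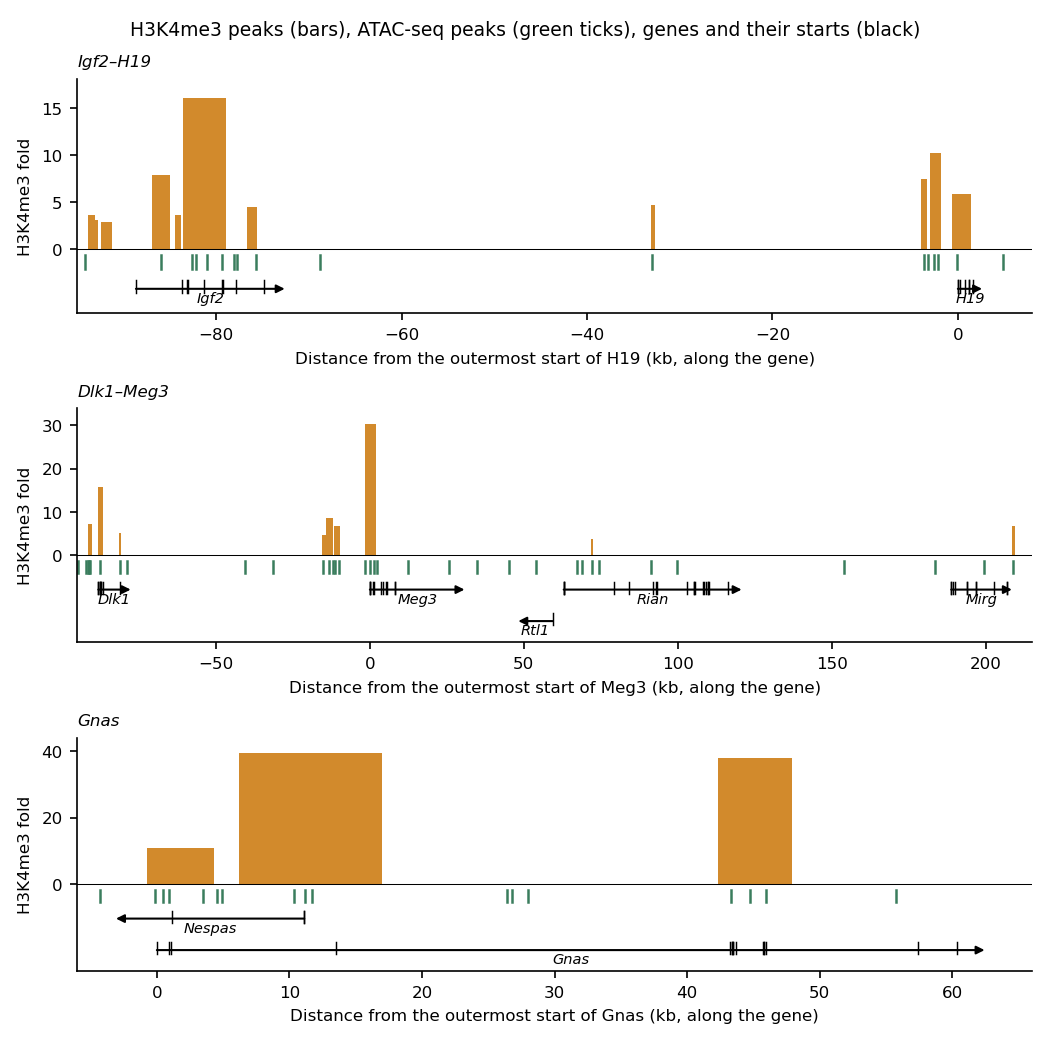
H3K4me3 peaks (bars, height is the fold enrichment and width the peak), ATAC-seq peaks (green ticks at their midpoints) and members with their annotated starts (black arrows and ticks) in 3 clusters, by distance in kb from the outermost start of H19, Meg3 and Gnas. H19 and Meg3 have peaks upstream of their start, Rian and Rtl1 have none near a start, and the 3 peaks of Gnas lie over its starts.

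Gnas, which encodes the stimulatory G protein alpha subunit, had 3 wide peaks over its starts. The peak at the outermost start, that of the maternally expressed neuroendocrine protein transcript, was the weakest (11, 5028 bp). The middle peak, over the paternally expressed long form and the start of the antisense Nespas, was the widest of all members' peaks (39.4, 10792 bp, chr2:174290480-174301271, −log10 q 568). The peak over the start of the G protein itself had 37.9 over 5515 bp, with its summit 46.3 kb from the outermost start. It covered 10 of the 16 annotated starts, in separate groups at 43.250 to 43.703 kb and at 45.686 to 45.967 kb from the outermost start, so its fold belongs to no single group. Wide peaks were also found at Mest, a hydrolase gene of the mesoderm (25, 6303 bp, chr6:30734725-30741027, −log10 q 376), and at Peg3 and Usp29, a zinc finger and a ubiquitin protease gene on either side of a promoter (27.3, 5168 bp, chr7:6727389-6732556, −log10 q 359). Zim1, a maternal zinc finger gene beside them, had a narrow peak of 1114 bp at 21.5.

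Separately marked starts were common among these genes. At least 2 H3K4me3 peaks, each over an annotated start, were found for 12 of the 42 members (28.6%), against 7.36% of protein-coding genes. Among members that code for protein and have 5 or more starts it was 11 of 17 (64.7%), against 15.4% of the protein-coding genes with as many starts. Of the members with a control region at a start 9 of 20 (45%) had them, and of the others 3 of 22 (13.6%), namely Commd1, Dlk1 and Slc22a18. Gnas and Nespas are both among the 9 although they share peaks, and the inner peak of Commd1 is that of Zrsr1. Peaks close together also counted as separate, as in Slc22a18, with summits 0.365 and 1.42 kb from its outermost start. In several of the 12 members a marked inner start lay far from the first. Plagl1, a growth-restraining zinc finger gene, had 16.1 at its first start and 21.6 at an inner start 30.5 kb away (chr10:13090188-13092149, 1962 bp, −log10 q 269). Impact, a regulator of translation, had 19.4 at its first start and 30.8 at an inner start 16.9 kb away (chr18:12971750-12975473, 3724 bp, −log10 q 446). Inpp5f, a phosphatase gene with an imprinted short form, had 43.8 at its first start (chr7:128611226-128613014, 1789 bp, −log10 q 745) and 20.1 at an inner start 77.0 kb away. Grb10, a restrainer of insulin signalling, had 17.7 at its outermost starts (chr11:12035885-12039042, 3158 bp, −log10 q 129), and 3.94 and 12.3 at starts 10.7 and 12.6 kb inside. The peak of Commd1 at its first start (35.2) and that over Zrsr1 within its intron (36.0, chr11:22971604-22975976, 4373 bp, −log10 q 628) were nearly equal.

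**Figure D4:**
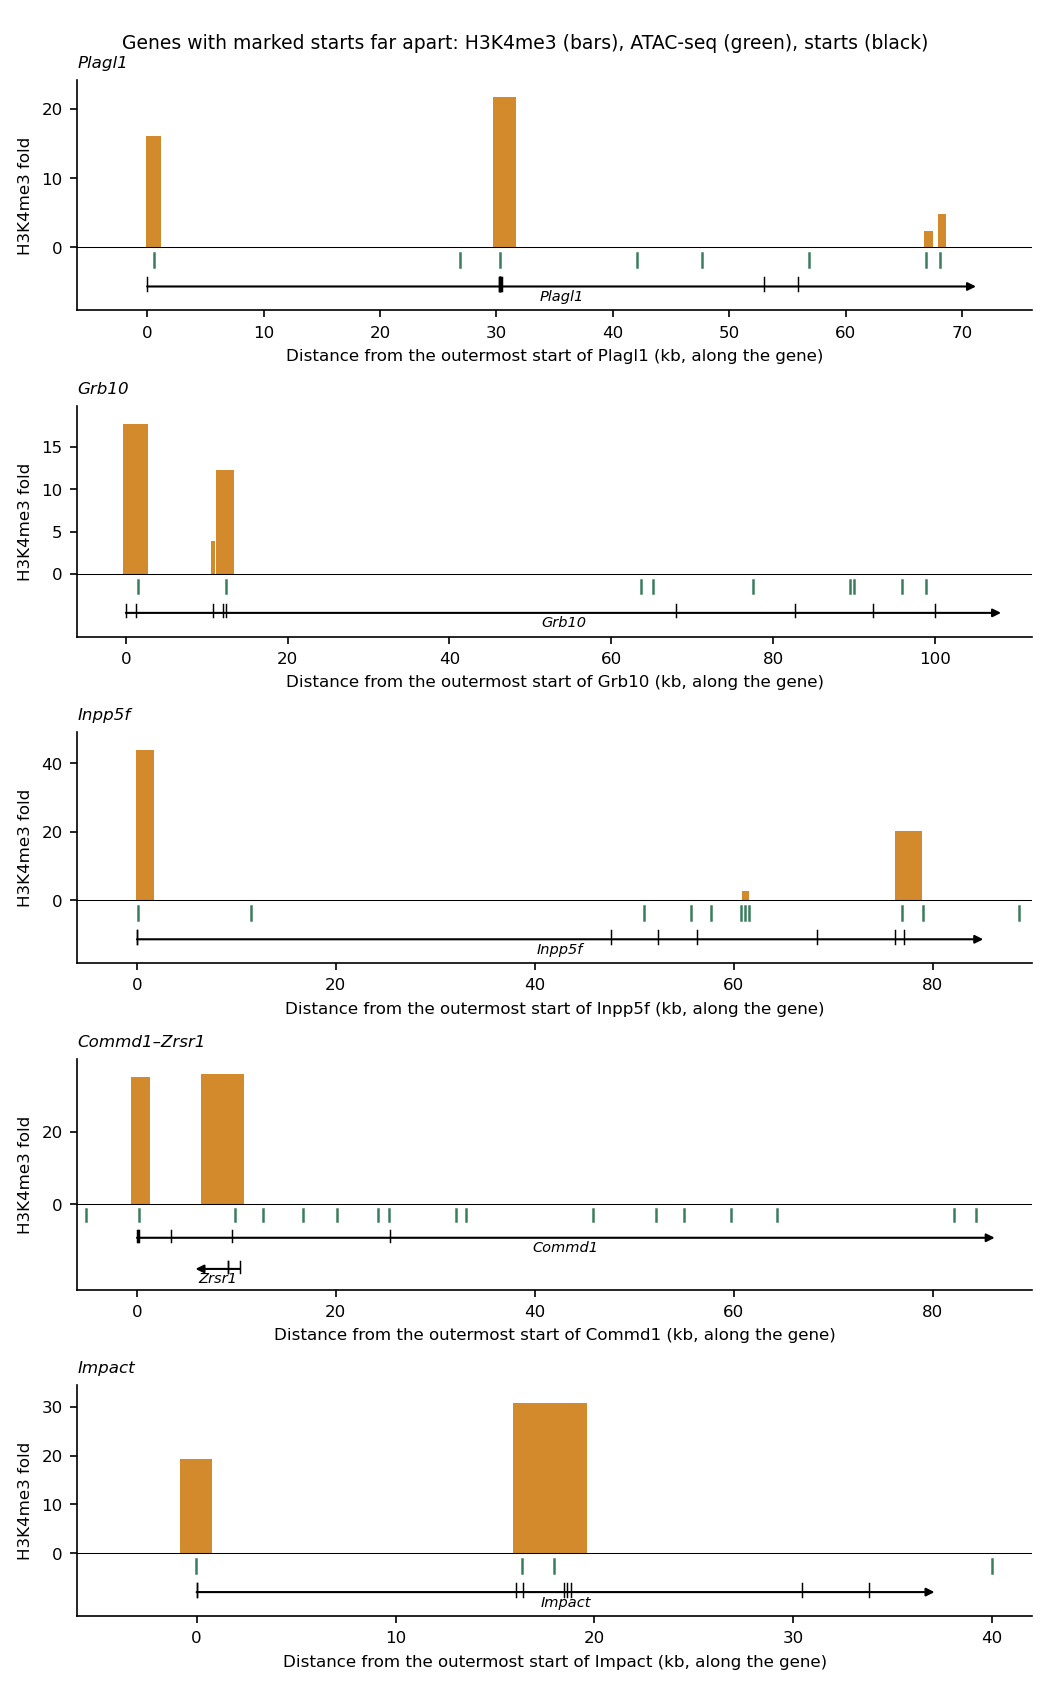
H3K4me3 peaks (bars, height is the fold enrichment), ATAC-seq peaks (green ticks at their midpoints) and annotated starts (black ticks on the gene arrows) along 5 loci with marked starts far apart, by distance in kb from the outermost start of the named gene. The inner peak is stronger than the outer in Plagl1 (21.6 against 16.1) and Impact (30.8 against 19.4) and weaker in Inpp5f (20.1 against 43.8).

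The other clusters ranged widely in strength. H13, a signal peptide peptidase gene, had the second highest fold (52.7, chr2:152669350-152671460, 2111 bp, −log10 q 999.7, summit 205 bp downstream of the start), and Mcts2, a retrogene in its intron, had 30.2 in a peak that began 12 bp downstream of its start. Zdbf2, a zinc finger gene, reached 43.5 (chr1:63272342-63275458, 3117 bp, −log10 q 822). Trappc9, a vesicle transport gene, had a narrow strong peak (38.2, chr15:73060223-73061232, 1010 bp, −log10 q 730), while the noncoding Peg13 in its intron had 16.3 and Kcnk9, a potassium channel gene expressed in brain, had 13.2 in a wide peak (chr15:72545497-72549617, 4121 bp, −log10 q 77.3). Slc38a4, an amino acid transporter gene, had 36.4 (chr15:97053010-97056031, 3022 bp, −log10 q 678) and 10 ATAC-seq peaks near its starts, the most of any member.

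Peg10, a retrotransposon-derived gene needed in the placenta, and Sgce, which encodes a sarcoglycan, shared a peak of 33.0 (chr6:4745410-4749155, 3746 bp, −log10 q 331). Igf2r, the receptor that clears insulin-like growth factor, had 26.0 (chr17:12768254-12770624, 2371 bp, −log10 q 368), and Airn, the antisense RNA that silences it, had 23.1. Of the genes in introns of other genes, Nnat, a brain proteolipid gene, had 19.9 (chr2:157559221-157562236, 3016 bp, −log10 q 240) and Nap1l5, a nucleosome assembly gene, had 14.7 (chr6:58906296-58907669, 1374 bp, −log10 q 147). All of these lay within or below the middle range of protein-coding genes.

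The ZFP57 hexamer was frequent where a control region lies at a start. In the 1 kb around the summit, at least 3 hexamers on either strand were found in 6.14% of the 17728 H3K4me3 peaks near protein-coding starts. Among the strongest peaks of the members with a control region at a start it was 11 of 17 peaks (64.7%), with a median of 3 hexamers, against a median of 0 over all peaks. Among the strongest peaks of the other members it was 2 of 20 (10%), at Ascl2 and upstream of H19. Snrpn and Mest had most, at 8 each, followed by Nnat and the inner start of Plagl1 at 6. The 1 kb can reach past the peak, as at Mcts2, with 3 hexamers in the 1 kb and 0 within the peak. In the whole of each peak, 8 or more hexamers were found in 6 of the members' 61 peaks (Peg3 and Usp29, Snrpn, Mest, Nnat, Gnas and Nespas, and Airn), against 0.288% of all peaks near protein-coding starts, and such counts grow with the width of a peak, which was larger in members. The shared peaks were counted once within each class, and the peak of Commd1 and Zrsr1 stands in both.

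Among the genes with separately marked starts, several had more hexamers around the inner summit than around the first. Inpp5f had 6 at its inner start and 0 at its first, Plagl1 6 and 0, Mest 8 and 1, and Impact 2 and 0. Grb10 had 4 at each of its 2 stronger peaks, and Dlk1 (1 and 1) and Slc22a18 (0 and 0) had equal counts. Gnas had 0 at its strongest peak and 2 at each of the others, and Commd1, Sgce and Slc38a4 had at most 1 at any. CpG content was close to that of other peaks, the ratio of observed to expected CpG having a median of 0.69 in their 36 strongest peaks and of 0.67 in all peaks near protein-coding starts. Within RefSeq promoters of 300 bases, 13 of the members' 49 promoters, some of which overlap, held a hexamer, against 11.6% of 32851 promoters. A match is a description of the letters, and binding was not measured.

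**Figure D5:**
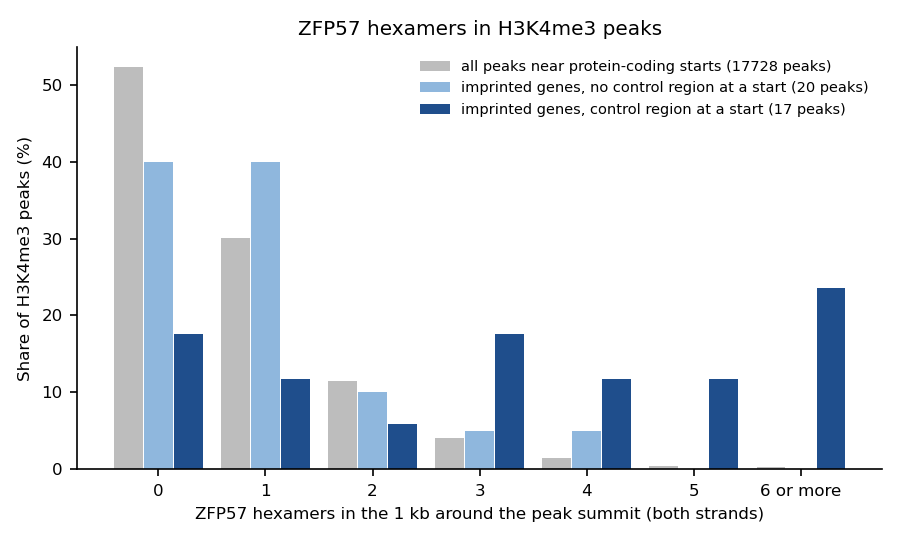
Share of H3K4me3 peaks (y axis, %) by the number of ZFP57 hexamers in the 1 kb around the summit (x axis) for all peaks near protein-coding starts and for the strongest peaks of imprinted genes with and without a germline control region at a start. With a control region 11 of 17 peaks have 3 or more in this 1 kb, which can reach past the peak, without one 2 of 20 and over all peaks 6.14%.

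The Peg3 and Usp29 peak held 11 matches to the YY1 core over its 5168 bp, and no other of the 17737 peaks held as many (0.00564%), in counts that were not scaled to width. YY1 is a zinc finger factor that binds a series of repeats in the first intron of Peg3. The peak of Meg3 held 4 matches, a number reached by 0.293% of peaks. In the 1 kb around the summit a match was found in 15.9% of all peaks and in 4 of the 36 strongest peaks of members.

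Other imprinted genes and neighbours of imprinted genes were marked about as often. Of 38 such genes, mostly neighbours in the same clusters, 35 had an H3K4me3 peak near a start (92.1%), with a median fold of 27.9. Among all genes it was 39.5%, and among all protein-coding genes 70.8%. Th, Ins2 and Slc22a2, which serve dopamine synthesis, insulin and cation transport, had none. All 10 genes examined that maintain imprints had a peak, where 70.8% of protein-coding genes had one. Among them were Zfp57 at 33.7, Trim28 at 44.3 and Dnmt1, the maintenance methyltransferase, at 32.6, with the lowest at 2.43 for the germ-line gene Ctcfl.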

How the data were processed

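H3K4me3 ChIP-seq and ATAC-seq of F123 mESCs (2 replicates each) were analysed. For H3K4me3 the authors ran the ENCODE histone pipeline at its defaults on mm10, per the methods and labels, and deposited the replicated peaks. The deposited columns give position, a fold enrichment (a ratio over the caller's background) and a −log10 q. The aligner, the threshold and the use of the input are not given in the sources used here. For ATAC-seq the authors, per the labels and methods, aligned reads with bowtie 1.1.2, called peaks with MACS2 2.1.1.20160309 after moving read ends for Tn5, and with bedtools 2.27.1 kept pooled peaks found in both replicates, as positions only. Without read counts, depth is unknown and precision rests on the number of genes.

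Peaks were matched to transcript starts of GENCODE M21 (mm10, 2 kb, at least 1 bp shared). The match was checked on simulated peaks against bedtools 2.31.1. Sequence came from the GRCm38.p6 genome and RefSeq promoters, of which all 49 for members were identical to the genome. Hexamer, YY1 and CTCF letters were searched on both strands by exact match. Shares have 95% Wilson intervals. No test was run, since the lists give no values per replicate. The members, their classes and the other lists were chosen with earlier results of these data known. Every member is accounted for by name, with full values for those without an H3K4me3 peak, the strongest of each cluster and the 5 highest and 5 lowest folds. Alternatives were other windows (1 kb, 500 bp and 5 kb), the outermost start only, −log10 q minimums of 5 and 50, the widest 50% of ATAC-seq peaks, summits or midpoints in place of any overlap, the 7 members with limited parental expression left out and, chosen after seeing the data, shared peaks counted once. The PLAC-seq and input samples were not analysed here. Python 3.11.15, pandas 2.3.3, scipy 1.17.1 and matplotlib 3.10.9 were used.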

Additional observations from a re-analysis of the deposited data

How the results depend on the processing

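All 56 recomputed counts of members stayed within 1.5 times their value. That limit is wide for counts so close to the number of members, so it says little by itself. Leaving out the limited members also lowered the number of members, as in the maternal class, from 15 of 16 marked to 10 of 11. An H3K4me3 peak was found near a start of 37 to 40 of the 42 members over the windows, starts, thresholds and overlap rules, and of 33 of 35 with the limited members left out. The median fold of the strongest peak (26.7) moved to 27.33 with windows of 1 kb, 500 bp or 5 kb, with −log10 q of at least 50 and with the summit in the window. It was 23.39 for the outermost start only, 23.39 without the limited members and 24.21 with shared peaks counted once, and it lay below the protein-coding median of the same setting in each. The median width (3052 bp) moved to 3100 bp with windows of 1 kb or 500 bp, with −log10 q of at least 50 and with the summit rule, to 2954 bp for the outermost start, to 3022 bp without the limited members and to 3016 bp with shared peaks counted once, above the protein-coding median in each.

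No paired analysis was possible because each list stands for both replicates, and for the same reason leaving out a replicate could not be run. The lists give presence above the authors' threshold, and signal below it was not measured. Allele, expression and methylation were not measured, and a peak within 2 kb was not assigned to a transcript.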
